A study of Homo sapiens with 18 samples.

Results

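The genes described here are 9 genes of MHC class I antigen presentation, namely HLA-B, HLA-C, HLA-E, B2M, TAP1, TAP2, TAPBP, NLRC5 and ERAP1, of 19974 protein-coding genes in the RefSeq table used. They were chosen by name, and each was given every MAX peak whose summit lay inside the gene or within 2500 bp of 1 of its outer ends. MAX, the obligate DNA-binding partner of MYC, was mapped by ChIP-Rx, which is chromatin immunoprecipitation and sequencing with foreign cells added as a reference. The cells were U2OS, a human osteosarcoma line, with the endogenous MYC gene knocked out and a Tet-On copy of MYC in the form 3A, 7A or WT. Per the labels, the forms 3A, 7A and WT were each induced with 1 µg/ml doxycycline (Dox) for 24 h or left without Dox, and every library held 10% mouse NIH3T3 cells. The labels list 18 libraries, of which 12 were MAX immunoprecipitations, 2 per form and treatment, and 6 were inputs. The antibody field and titles name MAX, which is followed here, although their protocol text mentions an antibody against FLAG. The data analysed were 3 peak lists, 1 per MYC form, with 27294 peaks for 3A, 25159 for 7A and 34622 for WT. Nothing in a list separates Dox from no Dox or one replicate from another. The values below therefore have no replicate error, no p-value was computed, and a difference between lists is a difference between those 3 lists. The number of reads per library is unknown from them.

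MHC class I molecules, a polymorphic heavy chain paired with B2M, carry peptides from inside the cell to its surface, where CD8+ T cells read them. Peptides cut by the proteasome are pumped into the endoplasmic reticulum by the transporter made of TAP1 and TAP2, trimmed there by ERAP1, and loaded onto heavy chains with the help of tapasin (TAPBP). NLRC5 is the transactivator that, with the RFX complex, drives transcription of class I heavy chain genes and of several genes of this pathway. MYC and MAX bind as a dimer to E-boxes, with CACGTG the preferred form and other CANNTG sequences as weaker ones.

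A MAX peak was listed at 2 of the 9 genes, NLRC5 and ERAP1, in each of the 3A, 7A and WT lists. The other 7, HLA-B, HLA-C, HLA-E, B2M, TAP1, TAP2 and TAPBP, had none in any list. Among all protein-coding genes the share with a peak by the same rule was 67.7% in 3A, 66.7% in 7A and 70.8% in WT, and 65.7% had one in all 3 lists. Of the 7 genes without a peak, 6 lie in 1 stretch of chromosome 6 in which no list holds a peak.

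That stretch ran between neighbouring summits 5.08 Mb apart. In the 3A list the last summit before it was at chr6:28489539 and the first after it at chr6:33571360 (hg38). In the 7A list these summits were at 28489533 and 33571357, and in WT at 28489528 and 33571357. The lists thus end and resume at the same places to within 11 bp. The authors' peak numbers ran on without a break across it in all 3 lists. The first peak after the stretch is at BAK1, which encodes a pore-forming protein of apoptosis, with a fold enrichment over background of 12.4 in 3A, 14.3 in 7A and 22.95 in WT.

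The stretch holds 172 protein-coding genes, and 0 of them had a peak in 3A, 7A or WT. In the stretch of the same length that follows, 57 of 65 genes had a peak in 3A, 52 in 7A and 54 in WT. In the one that precedes it, 52 of 103 genes had a peak in 3A, 50 in 7A and 55 in WT. No other run of neighbouring protein-coding genes without a peak in any list was as long, the next holding 62 genes on chromosome 17. By length alone the gap was less unusual, since 17 gaps in 3A, 16 in 7A and 12 in WT were at least as long, itself included. These gaps were counted along whole chromosomes, and centromeres and gaps of the assembly were not left out. The listing therefore gives no contrast between these 6 class I pathway genes and the genes around them, and it bears on none of them individually. Whether reads from this stretch entered peak calling was not tested.

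**Figure D1:**
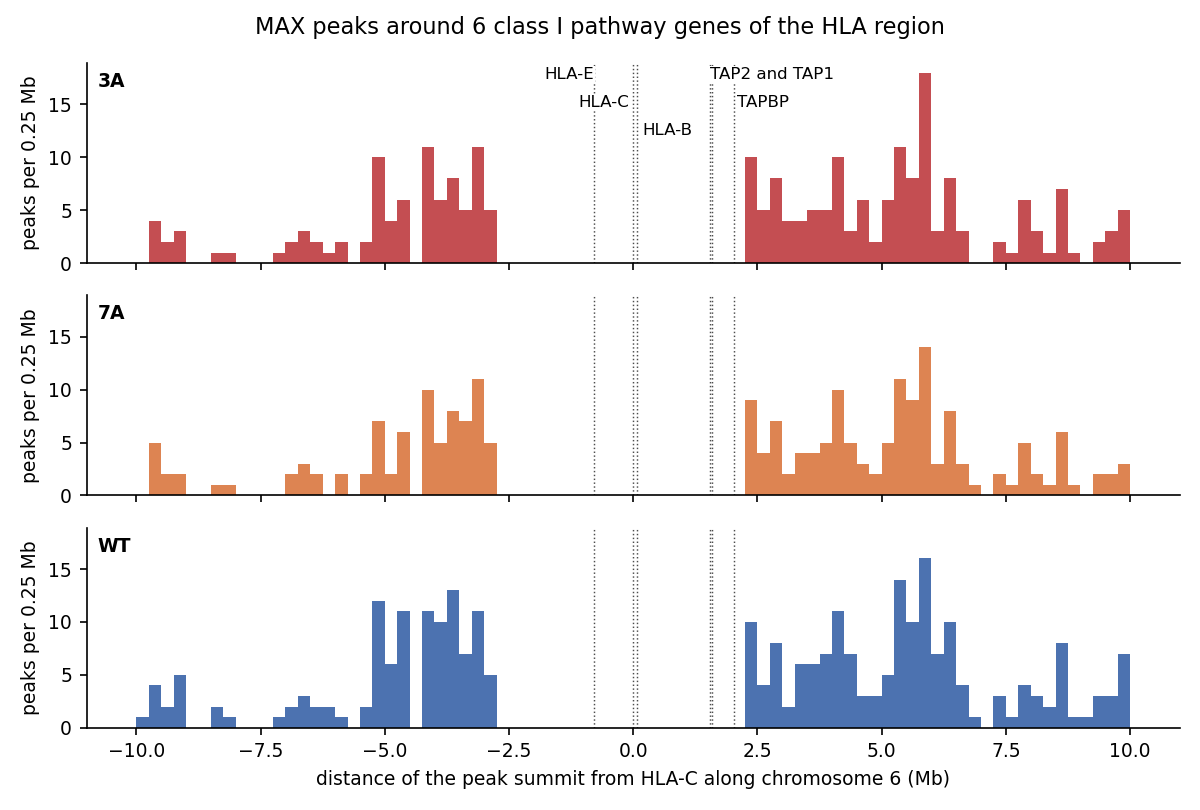
Number of peaks per 0.25 Mb along chromosome 6, by distance of the summit from HLA-C, in the 3A (top), 7A (middle) and WT (bottom) lists. Dotted lines mark HLA-E, HLA-C, HLA-B, TAP2, TAP1 and TAPBP, which all lie in a stretch of 5.08 Mb with no peak in any list.

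The classical heavy chain genes HLA-B and HLA-C, which present peptides to CD8+ T cells, lie deep inside it. HLA-B (chr6:31353875-31357179) was 2214 kb from its nearest summit in 3A, 7A and WT, and HLA-C (chr6:31268749-31272092) was 2299 kb away. HLA-E, a non-classical heavy chain that is a ligand of NK cell receptors, spans chr6:30489509-30494194 and was 2000.0 kb from the nearest summit in each list. TAP1 (chr6:32845209-32853704) and TAP2 (chr6:32821831-32838739), the subunits of the peptide transporter, were 718 and 733 kb away. TAPBP, which bridges the transporter and the empty heavy chain, spans chr6:33299694-33314078 and was the closest to an edge, at 257 kb.

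B2M, the light chain shared by all class I molecules, is the 1 gene without a peak that lies outside that stretch. It spans chr15:44711517-44718145, and the nearest summit lay before it, at 47.8 kb in each of the 3A, 7A and WT lists. That neighbouring peak had a fold enrichment of 18.0 in 3A, 16.3 in 7A and 21.4 in WT. On the other side the nearest summit was 305 kb away in 3A, 305 kb in 7A and 304 kb in WT. With the 3 genes outside the stretch counted alone, 2 had a peak in each list, against 68.3% of protein-coding genes outside it in 3A, 67.2% in 7A and 71.4% in WT. That is close to the share of genes at large.

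Promoter sequences are shown for the genes whose peak data can be read, B2M and ERAP1, from RefSeq (GRCh38.p14). The B2M sequence is the 250 bases before its start, chr15:44711267-44711516 on the plus strand. Capitals mark a CANNTG match, CAGGTG at 44711438-44711443.

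B2M: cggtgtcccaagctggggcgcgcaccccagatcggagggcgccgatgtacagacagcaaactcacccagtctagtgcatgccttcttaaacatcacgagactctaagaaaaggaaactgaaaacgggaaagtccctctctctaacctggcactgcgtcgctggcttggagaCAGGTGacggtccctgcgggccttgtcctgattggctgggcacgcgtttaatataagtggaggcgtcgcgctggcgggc

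Of the 9 genes, 7 matched the promoter table, with 9 windows of 300 bases (250 before a start and 50 after it); NLRC5 and HLA-E were not among them. CACGTG was in 0 of the 9 windows and in 7.26% of all 35116 windows of the table. CANNTG, whose letters read the same on both strands and which includes CACGTG, was in 2 of the 9 windows and in 68.7% of all. The 2 were the B2M window and the window of a second ERAP1 start. No window of HLA-B, HLA-C, TAP1, TAP2 or TAPBP held CANNTG, which says only that these letters are absent from those bases.

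NLRC5 (chr16:56989557-57083520) had its strongest peak at its lower-coordinate end in all 3 lists. The summit lay 42 bp before that end in 3A, 45 bp before it in 7A and 40 bp before it in WT. The peaks spanned 823 bp in 3A (chr16:56989167-56989989), 870 bp in 7A (chr16:56989112-56989981) and 880 bp in WT (chr16:56989115-56989994), and 815 bp were common to all. Position and width were thus nearly the same, with the 3 summits within 5 bp.

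The height of this peak differed more between the lists. Its fold enrichment, the authors' linear ratio of treatment to background at the summit, was 21.3 in 3A, 23.5 in 7A and 30.5 in WT. Because such ratios are not scaled between lists, each peak was also ranked within its own list by fold enrichment, the percentile being the share of that list's peaks with a lower value. The NLRC5 end stood at percentile 84.4 in 3A (rank 4258), 87.0 in 7A (rank 3263) and 90.3 in WT (rank 3357). By rank it was a strong peak in every list, and the 3 percentiles lay within 6 percentage points. The lncRNA LOC124903696 ends close by, 114 bp from the summit in 3A, 111 bp in 7A and 116 bp in WT, so the peak lies at the ends of both genes and nearer to that of NLRC5.

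A second NLRC5 peak lay inside the gene, with summits 71.9 kb from the lower end in 3A, 7A and WT and 10 bp apart at most. It spanned 332 bp in 3A (chr16:57061329-57061660), 269 bp in 7A (chr16:57061349-57061617) and 373 bp in WT (chr16:57061318-57061690). Its fold enrichment was 11.6 in 3A, 6.92 in 7A and 10.6 in WT. The 7A value was the low one, at percentile 18.8, against 53.5 in 3A and 49.7 in WT. Ranked by the authors' −log10 q instead, the same peak stood at percentile 17.5 in 7A, 58.1 in 3A and 54.0 in WT, so that the order was the same on both measures. The interval of the WT background of 13 allows a ratio of 6.40 to 18.8, which contains the 7A fold of 6.92. That range covers counting error in the WT background only, and folds are not scaled between lists. It therefore cannot decide whether 7A and WT differ, and the difference was not tested.

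A further NLRC5 peak was in the 3A list alone. It spanned 258 bp (chr16:57029234-57029491), with a summit 39.8 kb inside the gene, a fold enrichment of 9.18 and percentile 37.0 by fold and 13.3 by −log10 q. Peaks that overlapped neither other list were 2.93% of the 3A list, with a median fold of 6.89 and a median width of 316 bp, against 22.9% of the WT list. The NLRC5 one was narrower than that median and its fold was higher. That fold rested on a background of 3.84, against a median of 8.00 over sampled 3A peaks, and is imprecise.

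ERAP1, the aminopeptidase that trims peptides to fit the class I groove, spans chr5:96760813-96935854 in this annotation, a span of 175 kb that takes in the whole of ERAP2 and ends 226 bp before the start of LNPEP. It had 3 peaks in each list. The first lay inside the span at an inner ERAP1 start, the second inside ERAP2 and the third at the upper end, next to LNPEP. The last pair are therefore shared with those genes.

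The peak at the inner promoter was wide, 1542 bp in 3A (chr5:96807152-96808693), 1391 bp in 7A (chr5:96807243-96808633) and 1537 bp in WT (chr5:96807093-96808629), with 1387 bp common to all. It covered the annotated ERAP1 start at chr5:96807945 in each list. Its summit lay on the far side, 479 bp from that start in 3A, 499 bp in 7A and 448 bp in WT. The start of LOC124901033, a lncRNA on the opposite strand, was much nearer, at 8 bp in 3A, 12 bp in 7A and 39 bp in WT. The summits thus fell at the lncRNA start and the body of the peak spanned both.

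Both sequences are shown so that the summit can be set against them. The ERAP1 one is the 250 bases before its start, chr5:96807946-96808195 on the minus strand, and holds no CANNTG. The LOC124901033 one is its whole window, chr5:96807208-96807507 on the plus strand, which contains the summits of all 3 lists. Capitals mark CANNTG, which occurs there as CAGGTG at 96807382-96807387 and CAGCTG at 96807405-96807410.

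ERAP1: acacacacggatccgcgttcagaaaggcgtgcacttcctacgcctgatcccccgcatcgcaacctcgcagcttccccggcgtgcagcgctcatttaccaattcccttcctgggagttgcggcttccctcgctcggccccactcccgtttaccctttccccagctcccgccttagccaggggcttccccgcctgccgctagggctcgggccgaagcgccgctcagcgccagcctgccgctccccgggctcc

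LOC124901033: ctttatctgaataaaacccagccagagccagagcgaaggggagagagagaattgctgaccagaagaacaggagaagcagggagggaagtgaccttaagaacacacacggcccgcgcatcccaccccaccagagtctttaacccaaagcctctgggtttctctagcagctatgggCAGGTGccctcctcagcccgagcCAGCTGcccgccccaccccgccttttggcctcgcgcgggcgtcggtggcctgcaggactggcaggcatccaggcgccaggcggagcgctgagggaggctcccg

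Neither sequence holds CACGTG. The summit lay 61 bp from the first base of CAGCTG in 3A, 41 bp in 7A and 92 bp in WT. CANNTG is common in promoter windows, so its presence near a summit is a description and marks no site.

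The fold enrichment at this summit was 47.5 in 3A, 20.1 in 7A and 24.1 in WT. In 3A it was rank 551, percentile 98.0, the highest standing of any peak at the 9 genes. In 7A it stood at percentile 81.7 and in WT at 84.7. The 3A value rested on a background of 4, against a median of 8.00 over sampled 3A peaks.

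Treatment and background coverage were worked out from the authors' deposited ratio and −log10 p by inverting the MACS2 formulas, which add 1 to each coverage before taking the ratio. At the inner ERAP1 promoter the treatment coverage was 236 in 3A, 318 in 7A and 408 in WT, and the background was 4.00 in 3A, 14.9 in 7A and 16 in WT. Among sampled peaks the recovered treatment was a whole number, within 0.01, for 0.833% in 3A, 95.4% in 7A and 0.736% in WT, and the background was whole, within 0.001, for 65.3% in 3A, 3.43% in 7A and 71.4% in WT. Scaling thus differed between the lists, and these coverages are not on 1 scale. A background of 4 has an exact 95% Poisson interval of 1.09 to 10.2, and over that interval the 3A ratio would run from 21.1 to 114. The WT background of 16 has an interval of 9.15 to 26.0, giving 15.2 to 40.3. The 3A fold of 47.5 lies above the WT range. The 3A range contains the WT fold of 24.1. These ranges cannot decide whether the 3A and WT ratios at this promoter differ, and the difference was not tested. Both ranges cover counting error in the background only. Of the sampled 3A peaks that could be solved, 11.5% had a background of 4 or less, against 3.85% in 7A and 4.52% in WT. Ranked by −log10 q, the peak stood at percentile 93.5 in 3A, 86.5 in 7A and 88.0 in WT, which is the same order with a smaller gap.

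**Figure D2:**
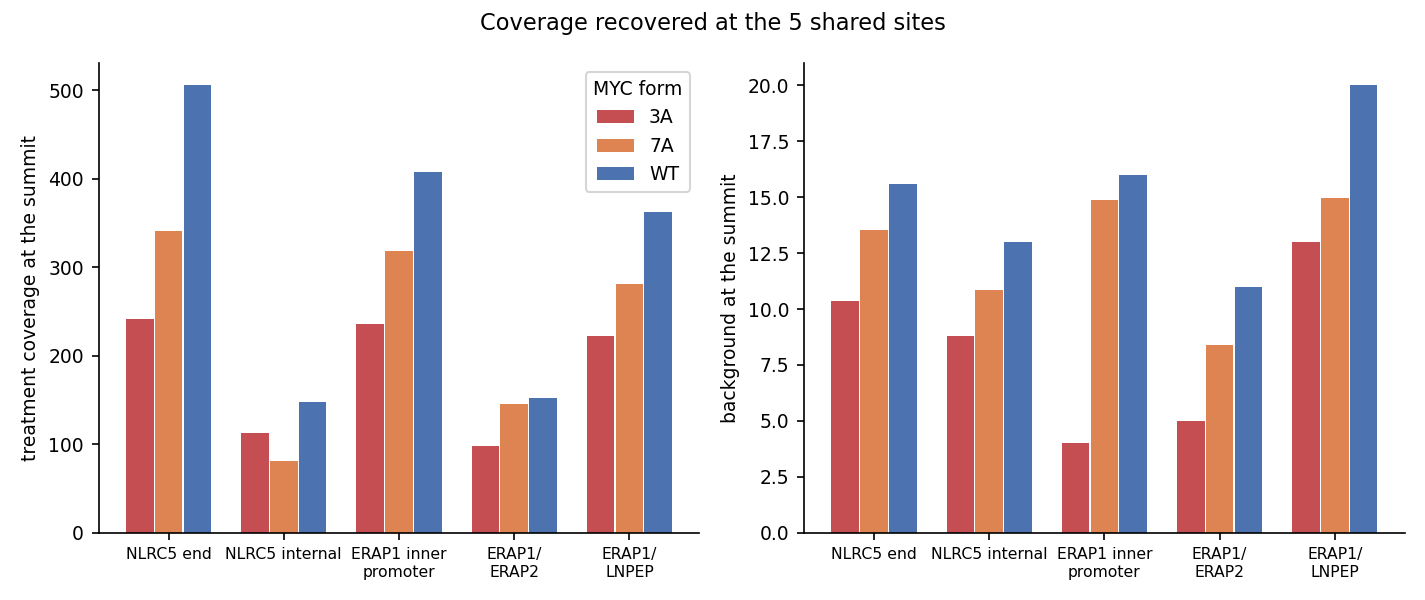
Treatment coverage (left) and background (right) at the summit of the 5 sites found in all 3 lists, worked out from each peak's ratio and −log10 p, with bars for 3A, 7A and WT and no replicates. Background at the inner ERAP1 promoter was 4.00 in 3A, 14.9 in 7A and 16 in WT; the lists were scaled differently, so heights are read within a list.

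The second ERAP1 peak, which lies 17.5 kb inside ERAP2, another trimming aminopeptidase of the endoplasmic reticulum, was narrow, at 393 bp in 3A (chr5:96893352-96893744), 310 bp in 7A (chr5:96893326-96893635) and 368 bp in WT (chr5:96893322-96893689). Its fold enrichment was 16.6 in 3A, 15.6 in 7A and 12.7 in WT, at percentile 74.4 in 3A, 70.4 in 7A and 59.7 in WT. Both mutant lists placed it above WT by fold. By −log10 q the percentiles drew together, at 61.6 in 3A, 60.5 in 7A and 58.1 in WT. Its background was 5.00 in 3A, 8.38 in 7A and 11.0 in WT, and the interval of the 3A background allows a ratio of 7.86 to 37.9.

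The third ERAP1 peak was the widest at any of the 9 genes, at 2345 bp in 3A (chr5:96934447-96936791), 2377 bp in 7A (chr5:96934402-96936778) and 2343 bp in WT (chr5:96934503-96936845). Its summits lay 552 bp inside the upper end of ERAP1 in 3A, 540 bp in 7A and 652 bp in WT, within 112 bp of each other. The start of the LNPEP gene body was 778 bp away in 3A, 766 bp in 7A and 878 bp in WT, and the summits lay inside a further protein-coding gene, LOC124901030. LNPEP encodes a membrane aminopeptidase that also trims peptides in endosomal cross-presentation. The fold enrichment was 15.97 in 3A, 17.7 in 7A and 17.3 in WT, at percentiles 72.6 in 3A, 76.7 in 7A and 73.8 in WT. This site was the most alike of the 5 in standing across the lists.

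**Figure D3:**
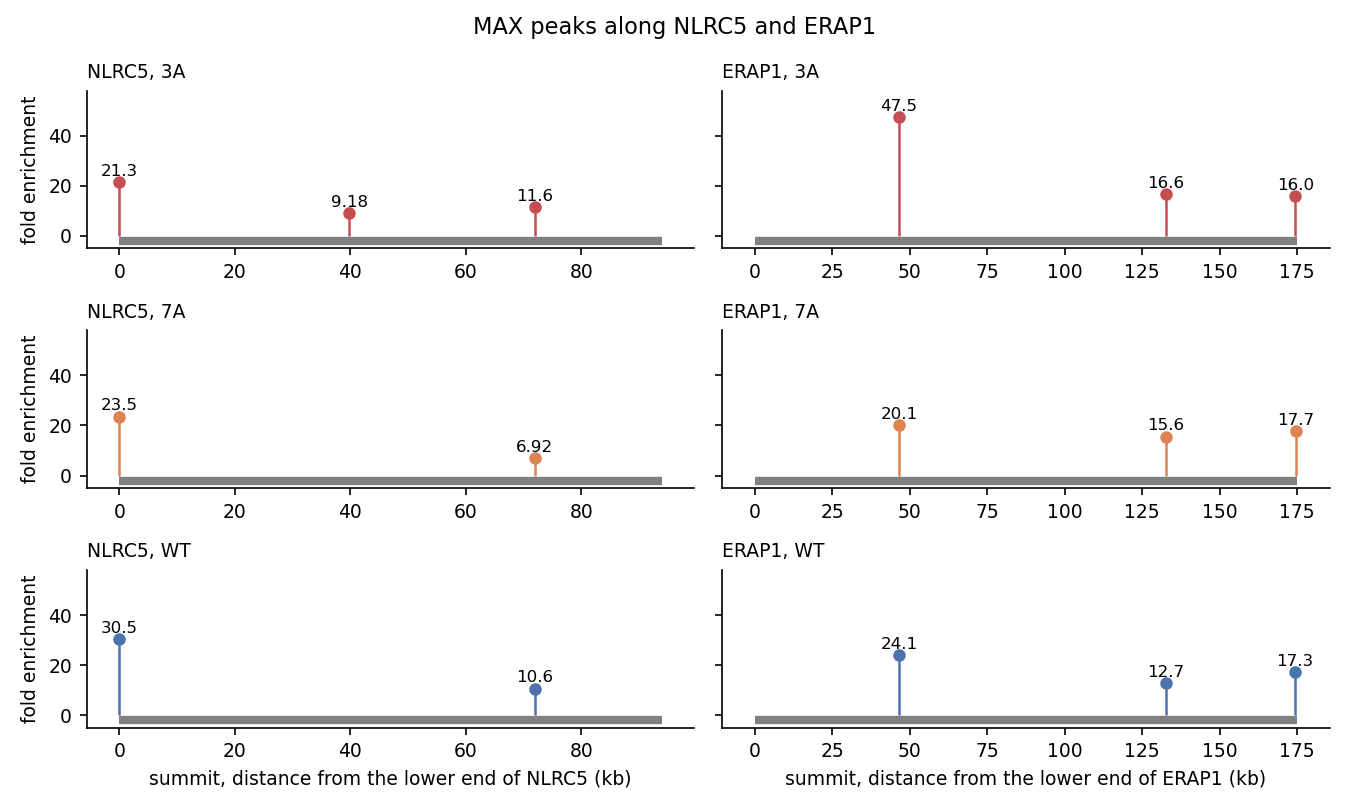
Fold enrichment (vertical axis) of every peak along NLRC5 (left) and ERAP1 (right), by distance of its summit from the lower-coordinate end of the gene in kb, with 3A, 7A and WT from top to bottom. The grey bar is the annotated gene; 1 NLRC5 peak, at 39.8 kb, is in the 3A list alone.

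All 5 WT peaks at the 2 genes were overlapped by at least 1 bp by a peak of the 3A list and by a peak of the 7A list. Of all WT peaks at protein-coding genes, 79.0% were overlapped in 3A and 75.5% in 7A, and of the whole WT list 74.0% were overlapped in 3A and 69.9% in 7A. Both mutant lists are compared with the same WT list. With only 5 peaks, the count gives no ground for a higher share at these genes.

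The percentile differences were set beside those of the 23158 WT peaks overlapped in both mutant lists, as a description. Over those peaks the difference, mutant minus WT, had a median of −2.85 percentage points in 3A and −4.96 in 7A, and the central 90% ran from −44.5 to 32.4 in 3A and from −45.9 to 31.5 in 7A. In 3A the 5 sites differed from WT by −5.90 at the NLRC5 end, 3.77 inside NLRC5, 13.3 at the inner ERAP1 promoter, 14.7 inside ERAP2 and −1.14 next to LNPEP. In 7A they differed by −3.27 at the NLRC5 end, −31.0 inside NLRC5, −2.99 at the inner ERAP1 promoter, 10.7 inside ERAP2 and 2.97 next to LNPEP. The largest, that of the internal NLRC5 peak in 7A, had 13.9% of shared peaks below it. Every one of these 10 differences lay within the central 90% of its distribution.

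**Figure D4:**
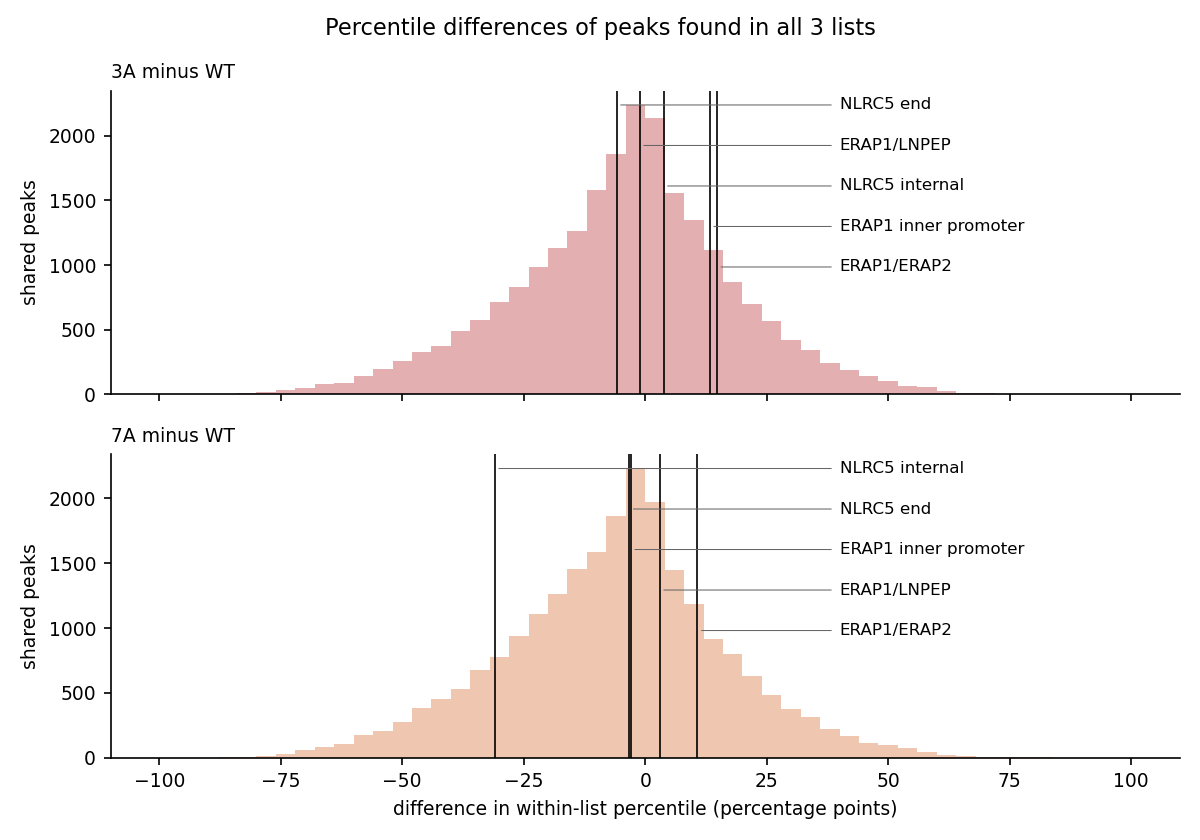
Histograms of the difference in within-list percentile, in percentage points, of the 23158 WT peaks overlapped in both mutant lists, for 3A minus WT (top) and 7A minus WT (bottom). Vertical lines mark the 5 sites at NLRC5 and ERAP1; the internal NLRC5 peak, at −31.0 in 7A, lies farthest from 0.

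Taking the strongest peak of each gene, the median percentile of NLRC5 and ERAP1 was 91.2 in 3A, 84.4 in 7A and 87.5 in WT. Over all protein-coding genes with a peak it was 71.0 in 3A, 68.5 in 7A and 74.7 in WT. The median width was 1182.5 bp in 3A, 1130.5 bp in 7A and 1208.5 bp in WT for the 2 genes, against 831 bp in 3A, 898 bp in 7A and 947 bp in WT for all genes with a peak. Both genes are long, and long genes are more often given a peak by this rule. Among 1504 protein-coding genes between 0.8 and 1.2 times the length of NLRC5, 83.5% had a peak in 3A, 82.6% in 7A and 86.8% in WT. Among 920 genes of like length to ERAP1 the shares were 85.2% in 3A, 83.7% in 7A and 90.1% in WT. Such genes had a median of 1 peak in each list, or 2 for genes like ERAP1 in WT, against 3, 2 and 2 peaks at NLRC5 in 3A, 7A and WT and 3 at ERAP1 in each list. The strongest of several peaks tends to stand higher than a single peak. Percentiles and widths of the strongest peak were not computed for genes of like length.

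A list of 25 further genes of the pathway was followed by the same rule, of which 7 lie in the empty stretch of chromosome 6 and had no peak. Of the 18 outside it, 15 had a peak in 3A, 15 in 7A and 16 in WT, against 68.3% in 3A, 67.2% in 7A and 71.4% in WT for all protein-coding genes outside it. By groups outside that stretch, 3 of 3 immunoproteasome and activator genes, 2 of 2 trimming peptidases and 6 of 6 regulators had a peak in all 3 lists, as did 3 of 4 chaperones and 1 of 3 class I-like genes. The trimming peptidases, ERAP2 and LNPEP, were counted from peaks that ERAP1 shares. The class I-like genes MR1, which presents microbial metabolites, and HFE, a regulator of iron uptake, had no peak in any list. Of 11 MHC class II genes, 10 lie in the empty stretch, and the other, CD74, the invariant chain, had none either.

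Among the regulators, which act upstream of class I transcription, IRF2, an interferon regulatory factor, had a fold enrichment of 23.4 in 3A, 12.7 in 7A and 32.8 in WT, with the 7A peak at percentile 58.9, the 3A peak at 87.2 and the WT peak at 91.7. Its background at these summits was 3.05 in 3A, 9.31 in 7A and 6 in WT, low enough that the ratio is imprecise. IRF1, the factor that induces class I genes after interferon, had similar fold values of 17.7 in 3A, 16.9 in 7A and 16.95 in WT. RFXANK, a subunit of the RFX complex, had 26.2 in 3A, 18.1 in 7A and 16.4 in WT at a peak beyond its upper end, where the 3A background was 4.03. The RFXANK peak at its lower end was weaker, with summits 27 bp before that end in 3A, 34 bp in 7A and 23 bp in WT. Its fold was 6.10 in 3A, 8.42 in 7A and 7.91 in WT, at percentiles 12.3 in 3A, 31.4 in 7A and 32.0 in WT.

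RFX5, the DNA-binding subunit of the RFX complex that occupies class I promoters with NLRC5, had 1 peak in each list. Its fold enrichment was 17.4 in 3A, 19.9 in 7A and 34.1 in WT, and its percentile was 76.8 in 3A, 81.4 in 7A and 92.3 in WT. Both mutant lists placed it below WT, with treatment coverages of 243 in 3A, 371 in 7A and 647 in WT over a background of 13.0 in 3A, 17.7 in 7A and 18.0 in WT. The background intervals allow a ratio of 10.5 to 30.7 in 3A and of 22.02 to 55.6 in WT, and none was computed for 7A. The folds of 3A and 7A lie below the WT range, and the WT fold lies above the 3A range. The ranges of 3A and WT overlap, and overlap alone cannot decide whether the ratios differ. They cover counting error in the background only, and the differences from WT were not tested. The RFX5 promoter is shown because the summit in WT, though not in 3A or 7A, falls on an E-box. It is the 250 bases before a RefSeq start, chr1:151347000-151347249 on the minus strand, with the CACGTG at 151347066-151347071 in capitals.

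RFX5: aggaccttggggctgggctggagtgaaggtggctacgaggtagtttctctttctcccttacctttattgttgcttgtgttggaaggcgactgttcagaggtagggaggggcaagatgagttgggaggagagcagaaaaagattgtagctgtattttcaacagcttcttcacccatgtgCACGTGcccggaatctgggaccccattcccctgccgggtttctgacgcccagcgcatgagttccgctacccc

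The WT summit fell within that motif, the 7A summit lay 2 bp outside it and the 3A summit 30 bp outside it. RFX5 is 1 of 3 genes with CACGTG, beside CANX and TAPBPL, among the 15 further pathway genes outside the stretch that matched the promoter table. Of the 27 windows of these 15 genes, 4 held CACGTG, against 7.26% of all windows. The 4 include overlapping RFX5 windows that hold the same motif, so that site is counted more than once. The TAPBPL window with CACGTG also held a summit in each list, with a fold of 9.68 in 3A, 10.2 in 7A and 10.5 in WT, and the CANX window held none. RFX5 was picked out after its values were seen.

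In the proteasome group, PSMB10, a catalytic subunit of the immunoproteasome, had the strongest peak, with fold 28.9 in 3A, 22.02 in 7A and 37.2 in WT. PSME2, a subunit of the proteasome activator, had 17.1 in 3A, 14.1 in 7A and 15.7 in WT at its strongest peak. That peak lay outside the gene, 1722 bp before its lower end in 3A, 1716 bp in 7A and 1704 bp in WT. The PSME2 peak with its summit in the promoter window had 15.3 in 3A, 8.67 in 7A and 10.1 in WT. PSME1, the partner of PSME2, had weak peaks. Their fold was 6.59 in 3A, 9.64 in 7A and 7.61 in WT, the last at percentile 29.9. The strength of the peaks thus varied within this small group more than between the lists.

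Among the chaperones, CALR, a lectin of the peptide-loading complex, had 2 peaks in each list. The one before its lower end, with summits 244 bp away in 3A, 301 bp in 7A and 243 bp in WT, had nearly equal folds of 16.8 in 3A, 16.6 in 7A and 16.8 in WT. The stronger one lay beyond its upper end, by 1255 bp in 3A, 1240 bp in 7A and 1239 bp in WT, with a fold of 17.5 in 3A, 19.96 in 7A and 47.6 in WT. Treatment coverage there was 209 in 3A, 242 in 7A and 522 in WT over a background of 11.0 in 3A, 11.2 in 7A and 10.0 in WT, each on its list's own scale. The background intervals allow a ratio of 10.1 to 32.3 in 3A and of 27.0 to 90.3 in WT. The folds of 3A and 7A lie below the WT range, and the WT fold lies above the 3A range. The ranges overlap at their ends, and overlap alone cannot decide whether the ratios differ. They cover counting error in the background only, and the difference was not tested. CANX, the chaperone that first holds new heavy chains, had 16.2 in 3A, 19.9 in 7A and 24.4 in WT at its strongest peak, which in WT was at another site of the gene than in 3A and 7A. PDIA3, the thiol oxidoreductase of the loading complex, had a peak in WT alone. That peak was 326 bp wide (chr15:43775366-43775691), with a fold of 17.2 and a summit 2275 bp beyond the end of the gene. The nearest summit to that peak was 16.7 kb away in 3A and in 7A. Its fold rested on a background of 4.88, against a median of 12.6 over sampled WT peaks, and is imprecise. A window of 1000 bp or less would not give this peak to PDIA3. Peaks that overlapped neither other list were 22.9% of the WT list. TAPBPL, a tapasin-like peptide editor, had 11.6 in 3A, 13.1 in 7A and 11.3 in WT at its strongest peak. Those summits lay 890 bp inside its upper end in 3A, 854 bp in 7A and 1334 bp in WT, away from its CACGTG window. The class I-like gene CD1D, which presents lipids, had 13.4 in 3A, 18.2 in 7A and 20.8 in WT at its strongest peak, which in 3A was at another site than in 7A and WT.

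For the 15 further genes with a peak in all 3 lists, the percentile of the strongest peak was below that of WT at 11 genes in 3A and at 8 in 7A. Over the 13113 protein-coding genes with a peak in all lists it was below WT at 58.7% in 3A and 64.2% in 7A. The counts of the pathway genes, 73.3% in 3A and 53.3% in 7A, lie on both sides of those shares.

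**Figure D5:**
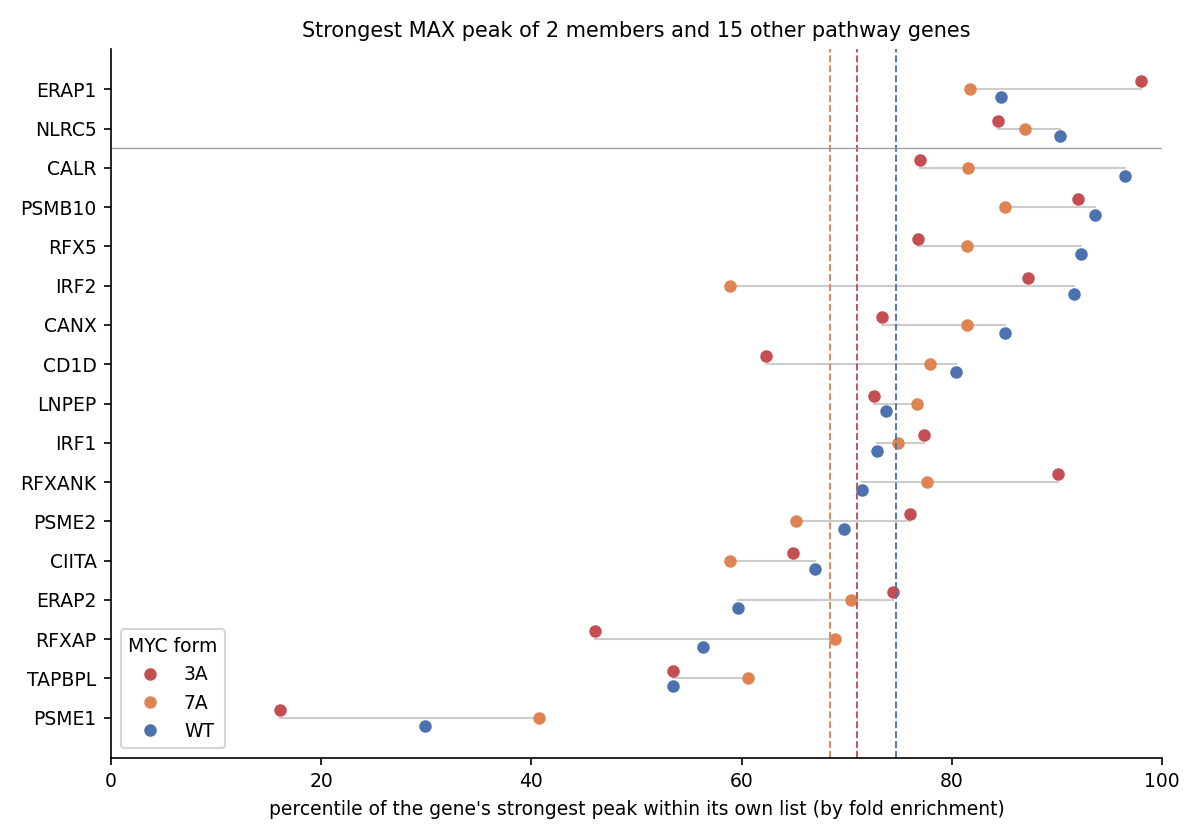
Within-list percentile, by fold enrichment, of the strongest peak of ERAP1 and NLRC5 (above the grey line) and of the 15 further pathway genes with a peak in all 3 lists, with points for 3A, 7A and WT. Dashed lines are the medians over all protein-coding genes with a peak, 71.0 in 3A, 68.5 in 7A and 74.7 in WT; both members lie above all 3 lines.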

How the data were processed

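MAX ChIP-Rx libraries of U2OS cells were described by the labels; the authors deposited 1 narrowPeak list per MYC form. Per the submitters' processing notes, the tools include MACS2, Bowtie2, cutadapt, Picard and SAMtools, and the builds hg38, hg19 and mm10; no version or role is stated. Pooling, the control used and any scaling by mouse reads are not given in the sources used here. The antibody field names MAX, whereas the protocol text of the labels describes anti-FLAG. The deposited lists give each peak's fold enrichment (a linear ratio), −log10 p and −log10 q, start, end and summit, which are the peak caller's own values. Positions were read as hg38, 1-based. There were 0 columns from other samples.

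Genes and promoter windows came from RefSeq GRCh38.p14, without strand or exons for genes; chromosomes 1 to 22 and X were used. Coverage was solved by the MACS2 formulas for 96.0% of 1000 sampled 3A peaks, 93.4% in 7A and 95.1% in WT; the step was tested on simulated data. Poisson intervals are exact, at 95%, for backgrounds within 0.001 of a whole number. The members and gene lists were chosen with earlier results of these data known. Named are all members, and of each further list up to 4 genes with the strongest WT peak and those with a peak in some lists only, plus neighbouring genes; an item of these lists is not reported here. Alternatives were windows of 500, 1000 and 10000 bp, gene ends alone, a −log10 q of at least 10, equal list lengths, summits within 100 bp, an overlap covering 50% of each peak, other rankings and the widest peak. Tools were matplotlib 3.10.9, SciPy 1.17.1, NumPy 2.4.6, pandas 2.3.3 and Python 3.11.15.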

Additional observations from a re-analysis of the deposited data

How the results depend on the processing

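The count of 2 genes with a peak was the same in all 3 lists with windows of 500, 1000 and 10000 bp. It also stayed 2 with gene ends alone, a −log10 q of at least 10 and lists of equal length. The 3 genes outside the empty stretch, chosen after seeing the data, gave 2 as well. That last result was fixed in advance, since no gene in the stretch had a peak. The 5 WT peaks overlapped in 3A stayed 5 with 50% overlap, summits within 100 bp, a −log10 q of at least 10 and lists of equal length, and the 5 in 7A were 4 with summits within 100 bp and 5 in the other 3. The median percentile of the strongest peaks moved in 3A to 90.4 with lists of equal length and to 82.8 when ranked among the strongest peaks of protein-coding genes. In 7A it moved to 87.8 when ranked by −log10 q and to 72.5 among strongest peaks. In WT these were 90.0 and 72.03, and 82.8 with lists of equal length. Ranked by −log10 q, 7A and WT moved up and 3A did not. Taking the widest peak of each gene gave a median width of 1584 bp in 3A, 1624 bp in 7A and 1612 bp in WT. These alternatives differ by construction in which peaks are ranked or measured. No paired analysis was possible because each MYC form has 1 list with no replicates and no test was made. The depth per library is unknown, which leaves peaks with a background of a few reads imprecise.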

Other observations

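A pair of further stretches of chromosomes with no peak were looked at after the empty HLA stretch had been seen, so they are descriptions only. In the leukocyte receptor complex on chromosome 19, which encodes receptors for class I molecules, 0 of 43 protein-coding genes had a peak in 3A, 7A or WT. Around MAPT on chromosome 17, 0 of 13 genes had one. These stretches, like the HLA region, are known for alternate haplotype sequences in the GRCh38 assembly. Both were picked by hand, and longer runs of genes without a peak lay elsewhere. After the HLA one, the longest runs held 62 genes (KRT222 to KRT17) and 55 genes (TAF15 to SPMAP1) on chromosome 17. The next held 54 genes (OR4C13 to APLNR) on chromosome 11 and 50 genes (DEFB1 to FAM90A12) on chromosome 8. The lists hold 3 peaks on alternate contigs in 3A, 2 in 7A and 4 in WT, none on a contig of chromosome 6. Whether the alternate sequences affected read mapping or filtering was not tested.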
